A study of Mus musculus with 21 samples.

Results

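The genes described here encode 10 antioxidant enzymes, Prdx1, Prdx2, Prdx3, Prdx5, Cat, Gpx1, Sod1, Sod2, Gclm and Txnrd1, out of 18217 genes that could be named on the array. They were chosen by function, with earlier results of these data known. Each was found through the RefSeq accession of its probe, and the brightest probe was used where a gene had several. Only Prdx2 had more than 1 probe. All 10 were well above background on all 21 arrays and entered the tests, against 14312 of the 18217 named genes that had a tested probe.

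Antioxidant enzymes work as a relay. Superoxide dismutases turn superoxide into hydrogen peroxide, and catalase, glutathione peroxidases and peroxiredoxins then break the peroxide down. Peroxidases need a supply of reduced glutathione, whose synthesis starts with glutamate-cysteine ligase, or of reduced thioredoxin, which thioredoxin reductase restores. Red blood cells carry oxygen bound to haem iron and are known for large amounts of catalase, glutathione peroxidase and peroxiredoxin 2, while neutrophils make oxidants to kill microbes.

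The samples were primary haematopoietic cells of C57BL/6 mouse bone marrow, sorted into 7 fractions and measured on 3 arrays per fraction. KLS are multipotent progenitors, lin- ckit+ sca1+, where lin- means lacking B220, CD3, CD4, CD8, CD41, Mac1, Gr1 and Ter119. The erythroid branch was followed through PreMegE, labelled CD150+ CD105- FGCrI/II-, CFUe, and Ter119 cells, which are CD71+ Ter119+. The myeloid branch was followed through PreGM, GMP, labelled CD150- FCGrI/II+, and Mac1Gr1 cells, which are Mac1+ Gr1+. The labels gave CFUe and PreGM the same surface markers (CD150- CD105- and lacking the Fcγ receptors), and they gave sca1+ to all 4 intermediate fractions. The Sca1 transcript Ly6a followed that label in part: its mean level was 2.57 in KLS, 2.10 in GMP, -0.31 in PreGM and -3.14 in PreMegE, and only 1 of 3 CFUe arrays detected it above background. The labels gave no treatment, age or sex of the mice and did not say whether the 3 samples of a fraction came from separate animals, so p-values measure only the spread between these samples.

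Levels are given as log2 signal after background correction, less the array's own 75th percentile, so that a level of 0 is that percentile and a difference of 1 is 2-fold. Between 56.4% and 77.4% of spots per array were well above background, and the number of arrays, not a read depth, limited the precision. Each of the 21 arrays correlated best with an array of its own fraction (r 0.977 to 0.993 within fractions, at most 0.964 between them). Known markers partly followed the labels. In Ter119, 10 of 10 measured erythroid markers were above background on every array, and in Mac1Gr1 13 of 13 granulocytic markers were. Mac1Gr1 also carried 7 of 10 erythroid markers above background on every array, at a summed level of 0.81 to 1.15 against 10.4 to 10.8 in Ter119, and the red cell genes Alas2 and Slc4a1 were higher there (-1.29 and -0.58) than in CFUe (-2.90 and -2.89). Ter119 also carried 13 of 13 granulocytic markers above background, with a summed level of 12.2 to 12.5 against 12.4 to 12.6 in Mac1Gr1 and 2.43 to 5.37 in CFUe, and B cell markers at 6.59 to 7.12 against at most 1.32 in CFUe. Macrophage, T cell and mast cell markers were also higher in Ter119 than in CFUe. KLS carried 10 of 10 macrophage markers (summed level 4.73 to 6.20, against at most 0.16 in PreMegE). Replicate 3 of CFUe stood apart from its group, with Mpo at 4.28 against 1.09 and 0.73, as did replicate 3 of PreGM, with S100a8 at 3.07 against 0.11 and -0.23. Y-linked transcripts without Xist marked KLS, PreMegE, Ter119 and replicate 3 of PreGM, whereas Xist without Y-linked transcripts marked GMP, Mac1Gr1 and the other PreGM arrays. The CFUe arrays divided less cleanly: each of the 5 sex-chromosome transcripts was above background on some CFUe array, and 1 was on all 3. Sex and fraction were therefore partly confounded. All 10 enzyme genes are autosomal. The counts of called enzyme genes given below were the same with both replicate 3 arrays left out, or with this sex difference as a block, for all 9 comparisons. Neither run separates sex from fraction, because within a fraction these transcripts varied only in CFUe and PreGM, whose replicate 3 arrays also stood apart otherwise. An effect of sex was thus not tested.

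The sequences around the transcription start are shown for 4 of the genes, because their transcripts moved in different ways: Gclm rose only in the erythroid branch, Prdx2 spanned the widest range, Prdx5 was highest in Mac1Gr1, and Prdx1 changed 2-fold or more only at the last step of each branch. Each is the RefSeq sequence in build GRCm38.p6, 300 bases long with 250 bases before the start, at chr3:122245307-122245606 (plus strand) for Gclm, chr4:116685349-116685648 (plus strand) for Prdx1, chr8:84969372-84969671 (plus strand) for Prdx2 and chr19:6910057-6910356 (minus strand) for Prdx5. Capitals mark matches, on either strand, to the antioxidant response element core TGACNNNGC, bound by NRF2 with small MAF proteins, to the NF-E2 or AP-1 site TGAGTCA and to the GATA site AGATAA.
Gclm: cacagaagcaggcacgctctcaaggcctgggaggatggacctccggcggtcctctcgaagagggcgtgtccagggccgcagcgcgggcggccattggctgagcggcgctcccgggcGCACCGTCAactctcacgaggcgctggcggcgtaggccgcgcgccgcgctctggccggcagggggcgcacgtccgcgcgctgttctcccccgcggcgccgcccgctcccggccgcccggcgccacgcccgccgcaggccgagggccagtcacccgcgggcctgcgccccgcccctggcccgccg
Prdx1: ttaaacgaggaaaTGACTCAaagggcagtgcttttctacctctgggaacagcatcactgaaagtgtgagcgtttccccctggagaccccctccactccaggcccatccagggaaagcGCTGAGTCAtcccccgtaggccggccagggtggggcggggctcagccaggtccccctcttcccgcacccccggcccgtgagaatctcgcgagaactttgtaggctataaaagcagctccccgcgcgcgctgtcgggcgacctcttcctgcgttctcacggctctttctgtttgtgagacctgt
Prdx2: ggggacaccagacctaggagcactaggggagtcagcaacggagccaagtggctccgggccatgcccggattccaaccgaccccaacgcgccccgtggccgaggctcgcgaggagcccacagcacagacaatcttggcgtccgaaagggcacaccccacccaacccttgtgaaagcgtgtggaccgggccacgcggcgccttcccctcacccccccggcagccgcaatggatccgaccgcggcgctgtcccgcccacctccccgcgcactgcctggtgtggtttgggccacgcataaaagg
Prdx5: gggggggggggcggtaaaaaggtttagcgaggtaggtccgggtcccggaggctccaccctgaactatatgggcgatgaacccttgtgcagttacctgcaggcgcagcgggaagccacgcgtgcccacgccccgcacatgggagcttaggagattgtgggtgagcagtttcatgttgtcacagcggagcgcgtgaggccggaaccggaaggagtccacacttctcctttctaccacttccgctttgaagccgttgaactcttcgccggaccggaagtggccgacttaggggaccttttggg

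The Gclm sequence held 1 antioxidant response element core, starting 134 bases before the transcription start. Prdx1 held a core that overlapped an NF-E2 or AP-1 match starting 131 bases before the start, and a further NF-E2 or AP-1 match farther out. The Prdx2 and Prdx5 sequences held none of these letters in this window. Among the 10 genes, 4 held the core (Prdx1, Sod1, Gclm and 1 of the 3 start sites of Txnrd1), whereas 12.39% of 32851 mouse promoters of the same length did. NF-E2 or AP-1 letters occurred in 1 of the 10 against 5.202% of all promoters, and the GATA letters in 0 of the 10 against 11.18%. The GC box GGGCGG, a common feature of housekeeping promoters, was in 10 of the 10 against 35.66%. A gene counted here if any of its start sites matched, whereas the shares are per single promoter. The GC content was above the median of all promoters (52.67%) for every gene but Gpx1 (47%) and, at some start sites, Txnrd1. Its part in the matches was not tested. Of the genes with the core, Prdx1, Sod1 and Txnrd1 fell at least 2-fold at the last step of both branches, and Gclm changed by 0.21 and 0.07 there. Of the genes without it, Prdx3 and Sod2 also fell at least 2-fold at both last steps, whereas Prdx2, Prdx5, Cat and Gpx1 did not. A link between these letters and the changes was not tested.

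All 10 genes differed among the 7 fractions (limma F-test, adjusted p from 1.36e-14 for Prdx2 to 2.46e-10 for Txnrd1), as did 94.7% of the 29527 probes tested. The distance between the highest and the lowest fraction mean ran from 1.79 for Txnrd1 to 6.17 for Prdx2, beside a median of 2.35 over all tested probes. Prdx1, Prdx3, Sod1 and Sod2 were highest in CFUe, Prdx2, Cat, Gpx1 and Gclm in Ter119, Prdx5 in Mac1Gr1 and Txnrd1 in KLS. For Prdx1, Prdx3, Sod1 and Sod2, CFUe against GMP gave -1.07, -0.10, -0.16 and -1.01 under spike-in scaling. Mac1Gr1 was the lowest fraction for 6 of the 10.

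**Figure D1:**
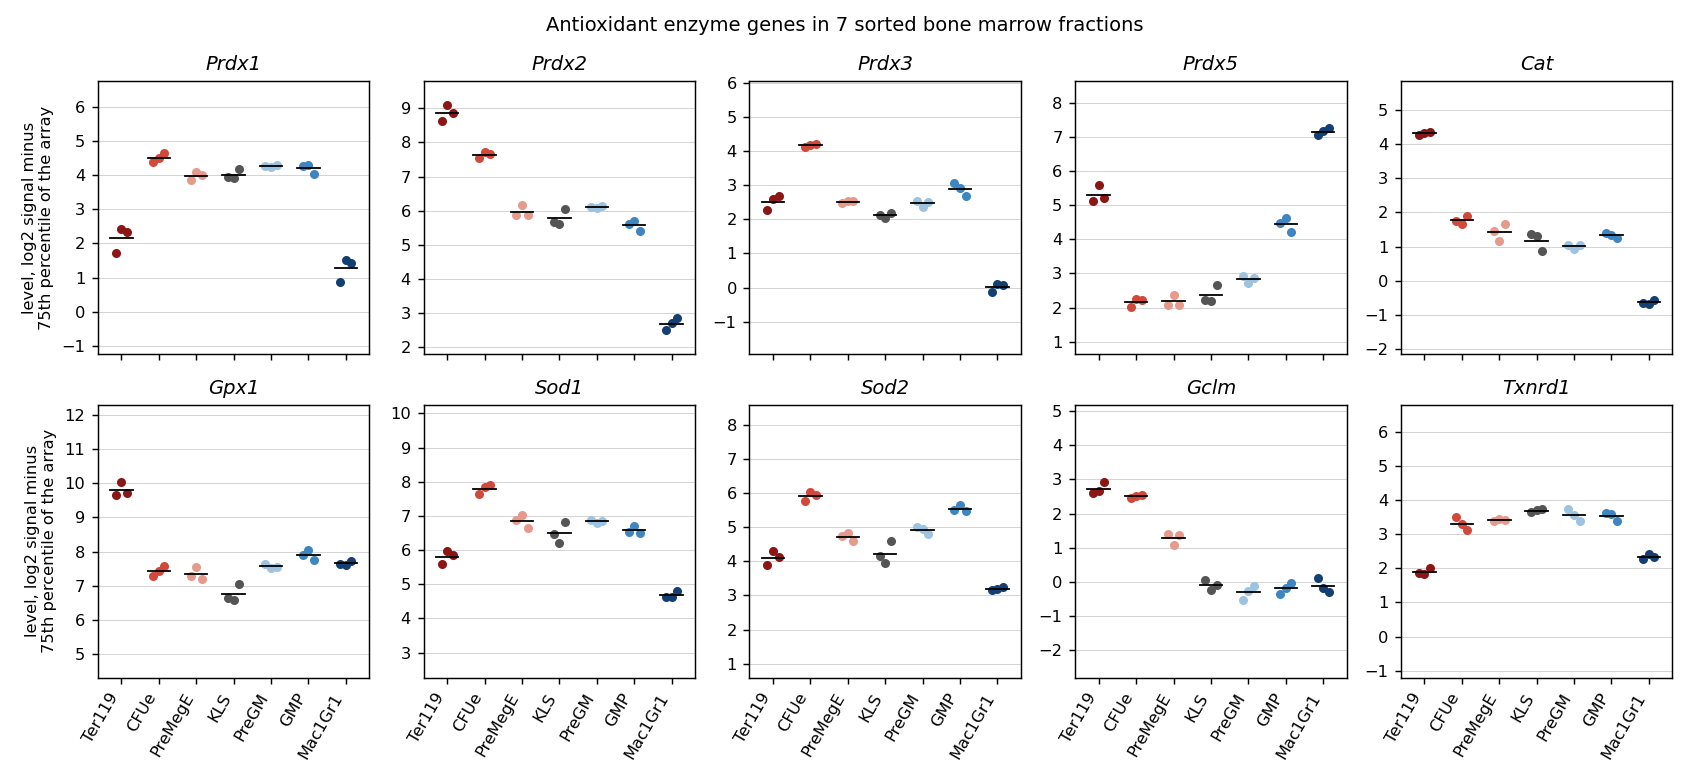
Level of each gene on each of the 21 arrays (points) with the mean of the 3 arrays of a fraction (line), in log2 units relative to the 75th percentile of the array, with the erythroid branch to the left of KLS and the myeloid branch to the right. Every panel spans the same number of log2 units but has its own offset, so heights cannot be compared between genes. Prdx2 runs from 8.86 in Ter119 to 2.69 in Mac1Gr1, and Prdx5 rises towards both ends of the plot.

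On the percentile scale used here, both superoxide dismutases peaked in CFUe and fell in the most mature cells of each branch. Under spike-in scaling CFUe against GMP gave -0.16 for Sod1 and -1.01 for Sod2. Sod1 encodes the cytosolic copper-zinc enzyme. Its level was 6.89, 7.02 and 6.65 on the PreMegE arrays, 7.64, 7.84 and 7.90 on the CFUe arrays and 5.59, 5.97 and 5.86 on the Ter119 arrays. In the myeloid branch it was 6.53, 6.72 and 6.49 in GMP and 4.62, 4.62 and 4.80 in Mac1Gr1. No array of CFUe overlapped PreMegE or Ter119, and GMP lay wholly above Mac1Gr1. Sod1 fell 3.96-fold from CFUe to Ter119 (log2 change -1.99 ± 0.15 SE, adjusted p 1.89e-09) and 3.73-fold from GMP to Mac1Gr1 (-1.90 ± 0.15, adjusted p 3.38e-09). The increase from PreMegE to CFUe, 0.94 ± 0.15 (adjusted p 5.20e-05), stayed under 2-fold, and passed it without PreMegE replicate 2 (1.02) or CFUe replicate 1 (1.02). In sorted populations such as these, fewer cells of a type and less RNA per cell cannot be told apart.

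Sod2, the manganese enzyme of mitochondria, was at 4.73, 4.82 and 4.58 in PreMegE, 5.75, 6.02 and 5.95 in CFUe and 3.90, 4.29 and 4.12 in Ter119. It was at 5.02, 4.93 and 4.80 in PreGM, 5.51, 5.64 and 5.48 in GMP and 3.15, 3.18 and 3.25 in Mac1Gr1. Fractions next to each other within a branch did not overlap from PreMegE or PreGM onward. Sod2 rose 2.29-fold into CFUe (1.20 ± 0.14, adjusted p 2.94e-06), but not 2-fold under quantile scaling (0.66) or spike-in scaling (0.68). It then fell 3.49-fold into Ter119 (-1.80 ± 0.14, adjusted p 4.60e-09) and 5.10-fold from GMP to Mac1Gr1 (-2.35 ± 0.14, adjusted p 1.40e-10). In the order of its fraction means PreGM and PreMegE did not differ beyond their spread, nor did KLS and Ter119. CFUe exceeded GMP by 0.36 (limma adjusted p 0.0434). That difference was -0.01 (adjusted p 0.942) in the authors' normalized table and -1.01 (adjusted p 0.00247) under spike-in scaling.

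The peroxiredoxins, which reduce peroxides through a reactive cysteine, did not move as a family. Prdx2 climbed through the erythroid branch and was lowest in Mac1Gr1, Prdx5 climbed through the myeloid branch, Prdx3 peaked in CFUe, and Prdx1 dropped only at the last step of each branch.

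Prdx2, the main peroxiredoxin of the red blood cell, was at 5.88, 6.17 and 5.87 in PreMegE, 7.55, 7.72 and 7.65 in CFUe and 8.62, 9.10 and 8.85 in Ter119. In the myeloid branch it was at 6.11, 6.07 and 6.13 in PreGM, 5.62, 5.69 and 5.41 in GMP and 2.50, 2.72 and 2.85 in Mac1Gr1. The 3 erythroid fractions formed separate steps upward, and every Mac1Gr1 array lay far below every other array. Prdx2 rose 3.17-fold from PreMegE to CFUe (1.67 ± 0.15, adjusted p 7.84e-08) and fell 7.39-fold from GMP to Mac1Gr1 (-2.89 ± 0.15, adjusted p 1.13e-11). Ter119 exceeded Mac1Gr1 71.9-fold (6.17 ± 0.15, adjusted p 5.09e-15).

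The further rise of Prdx2 from CFUe to Ter119 depended on the probe and on the scaling. The brightest probe, printed in 10 spots per array whose SD within an array was 0.022 to 0.075, rose by 1.22 ± 0.15 (adjusted p 8.32e-07). The other 2 probes, printed once each, gave 0.44 (adjusted p 0.0427) and 0.53 (adjusted p 0.00991), both under 2-fold. The brightest probe gave 0.77 in the authors' normalized table and -0.16 when arrays were scaled to the spike-in RNAs. Set to 0 at their KLS means, the 3 probes were 0.92 apart in Ter119, 0.49 apart in Mac1Gr1 and at most 0.19 apart in the other fractions. Ter119 exceeded Mac1Gr1 by 6.17, 5.60 and 5.94, and CFUe exceeded PreMegE by 1.67, 1.55 and 1.69.

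**Figure D2:**
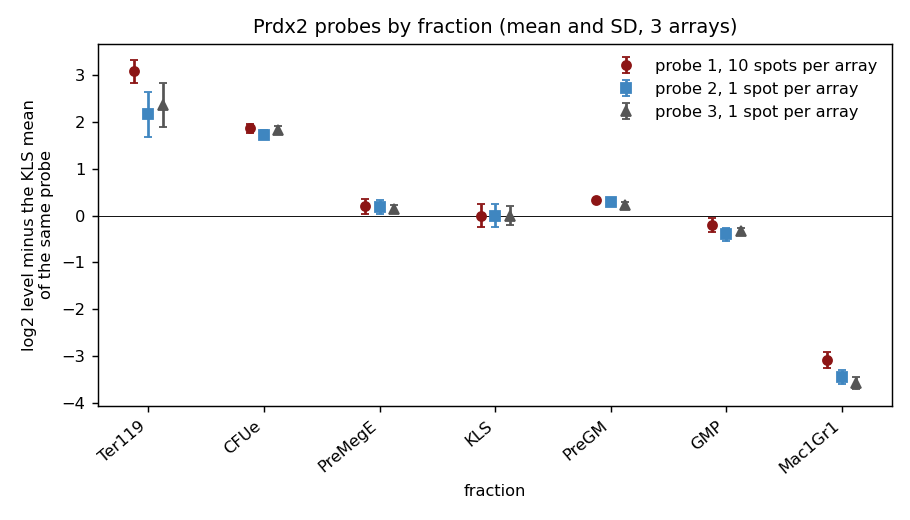
Mean level of the 3 Prdx2 probes in each fraction, each set to 0 at its own KLS mean, with SD over 3 arrays, on a log2 scale. The probes lie farthest apart in Ter119 (by 0.92) and less so in Mac1Gr1 (by 0.49), and the probe with 10 spots is the highest in both.

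Prdx3, the peroxiredoxin of the mitochondrial matrix, was at 2.47, 2.54 and 2.54 in PreMegE, 4.10, 4.19 and 4.21 in CFUe and 2.28, 2.58 and 2.68 in Ter119. It was at 3.07, 2.90 and 2.68 in GMP and -0.12, 0.09 and 0.07 in Mac1Gr1. CFUe stood above every other array, and Ter119 had returned to the PreMegE level, from which its mean did not differ beyond the spread. Prdx3 rose 3.14-fold into CFUe (1.65 ± 0.12, adjusted p 7.21e-09), fell 3.14-fold into Ter119 (-1.65 ± 0.12, adjusted p 1.00e-09) and fell 7.31-fold from GMP to Mac1Gr1 (-2.87 ± 0.12, adjusted p 8.57e-13).

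Prdx1, a cytosolic peroxiredoxin, was at 3.93, 3.92 and 4.17 in KLS and 4.37, 4.50 and 4.64 in CFUe, against 1.71, 2.41 and 2.33 in Ter119. It was at 4.27, 4.30 and 4.02 in GMP and 0.87, 1.52 and 1.42 in Mac1Gr1. Both mature fractions lay below the 5 progenitor fractions. Among those, neighbours in the order of means did not differ beyond the spread, but CFUe, the highest, exceeded PreMegE by 0.52 (adjusted p 0.0249), and KLS against CFUe gave -0.50 (adjusted p 0.0252). Prdx1 fell 5.10-fold from CFUe to Ter119 (-2.35 ± 0.18, adjusted p 2.73e-09) and 7.61-fold from GMP to Mac1Gr1 (-2.93 ± 0.18, adjusted p 1.49e-10).

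Prdx5, a peroxiredoxin found in mitochondria, peroxisomes and cytosol, was at 2.92, 2.72 and 2.86 in PreGM, 4.47, 4.63 and 4.21 in GMP and 7.05, 7.17 and 7.24 in Mac1Gr1. In the erythroid branch it was at 2.02, 2.25 and 2.22 in CFUe and 5.12, 5.60 and 5.21 in Ter119. The myeloid fractions formed separate steps upward, and Ter119 lay between GMP and Mac1Gr1. Prdx5 rose 3.04-fold from PreGM to GMP (1.60 ± 0.16, adjusted p 1.03e-06), 6.58-fold from GMP to Mac1Gr1 (2.72 ± 0.16, adjusted p 5.78e-11) and 8.83-fold from CFUe to Ter119 (3.14 ± 0.16, adjusted p 9.28e-12). Under spike-in scaling the change from GMP to Mac1Gr1 was 0.69 (adjusted p 0.0263), under 2-fold. Granulocytic markers rose beside Prdx5 in Ter119, from a summed level of at most 5.37 in CFUe to at least 12.2, with all 13 above background, as did B cell markers, and Prdx5 itself was higher in Mac1Gr1 than in Ter119. Their part in the Ter119 value was not tested.

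The 2 other peroxide-removing enzymes, Cat and Gpx1, were called at no step before the last and rose at the last erythroid step. Cat encodes catalase, which splits hydrogen peroxide without a reducing partner. Its level was 1.74, 1.65 and 1.91 in CFUe, 4.26, 4.34 and 4.36 in Ter119, 1.41, 1.34 and 1.25 in GMP and -0.66, -0.67 and -0.55 in Mac1Gr1. Ter119 lay above and Mac1Gr1 below all other arrays, with no overlap. Cat rose 5.88-fold from CFUe to Ter119 (2.56 ± 0.14, adjusted p 2.03e-11), fell 3.89-fold from GMP to Mac1Gr1 (-1.96 ± 0.14, adjusted p 6.34e-10), and differed 30.9-fold between Ter119 and Mac1Gr1 (4.95 ± 0.14, adjusted p 2.48e-14).

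Gpx1, the ubiquitous glutathione peroxidase, was at 6.65, 6.58 and 7.06 in KLS, 7.29, 7.45 and 7.59 in CFUe and 9.67, 10.03 and 9.73 in Ter119. It was at 7.91, 8.06 and 7.76 in GMP and 7.63, 7.62 and 7.72 in Mac1Gr1. Ter119 lay above all others, and from GMP down to PreMegE no neighbouring fractions in the order of means differed beyond their spread. Farther apart in that order, GMP exceeded PreMegE (-0.56 for PreMegE against GMP, adjusted p 0.00364) and CFUe (-0.47 for CFUe against GMP, adjusted p 0.0109). Gpx1 rose 5.14-fold from CFUe to Ter119 (2.36 ± 0.14, adjusted p 1.03e-10), while GMP to Mac1Gr1 gave -0.25 ± 0.14 (adjusted p 0.113). Spike-in scaling gave 0.98 for the first of these, just under 2-fold, and -2.29 for the second, which was then called. Granulocytic and B cell markers rose beside Cat, Gpx1 and Prdx2 into Ter119. In Mac1Gr1, where those genes were lower than in Ter119, the summed level was 12.4 to 12.6 for granulocytic and 4.35 to 5.14 for B cell markers. The part of either list in the Ter119 values was not tested.

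Gclm encodes the modifier subunit of glutamate-cysteine ligase, which makes the first intermediate of glutathione. It was the only 1 of the 10 genes to be called at the first erythroid step. Its level was 0.06, -0.24 and -0.08 in KLS, 1.39, 1.09 and 1.36 in PreMegE, 2.47, 2.52 and 2.55 in CFUe and 2.60, 2.65 and 2.91 in Ter119. It was at -0.54, -0.28 and -0.11 in PreGM, -0.35, -0.19 and -0.04 in GMP and 0.10, -0.19 and -0.29 in Mac1Gr1. The erythroid fractions rose in separate steps above KLS, whereas all myeloid fractions overlapped one another, and no neighbours among KLS and the myeloid fractions differed beyond their spread. Gclm rose 2.58-fold from KLS to PreMegE (1.37 ± 0.14, adjusted p 1.30e-06) and 2.35-fold from PreMegE to CFUe (1.23 ± 0.14, adjusted p 1.83e-06), then by 0.21 ± 0.14 (adjusted p 0.184) into Ter119. Neither rise reached 2-fold under spike-in scaling (0.91, adjusted p 0.0315, and 0.72, adjusted p 0.0593), where Ter119 against CFUe became -1.17 and Mac1Gr1 against GMP -1.97. Quantile scaling gave 0.99 for the rise into CFUe.

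The catalytic partner of Gclm, Gclc, was at 2.34, 2.31 and 2.28 in PreMegE and 4.15, 4.03 and 3.40 in CFUe. It was not called from KLS to PreMegE, rose with Gclm into CFUe (1.55, called), and in contrast to Gclm fell from GMP to Mac1Gr1 (-2.48, called).

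Txnrd1, the cytosolic thioredoxin reductase, was at 3.64, 3.70 and 3.73 in KLS, 3.50, 3.30 and 3.12 in CFUe and 1.85, 1.84 and 2.0 in Ter119. It was at 3.60, 3.60 and 3.39 in GMP and 2.26, 2.41 and 2.32 in Mac1Gr1. Both mature fractions lay below the progenitor fractions. Those did not differ from their neighbours in order beyond the spread, but KLS, the highest, exceeded CFUe by 0.38 (adjusted p 0.00827). Txnrd1 fell 2.66-fold from CFUe to Ter119 (-1.41 ± 0.11, adjusted p 5.42e-09; -0.94 under quantile scaling) and 2.30-fold from GMP to Mac1Gr1 (-1.20 ± 0.11, adjusted p 4.58e-08).

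Counted over the erythroid steps, where called means at least 2-fold with an adjusted p under 0.05, Gclm alone was called from KLS to PreMegE, higher, while 12.4% of all probes were called (3.55% higher and 8.86% lower). From PreMegE to CFUe 4 of the 10 were called, all higher (Prdx2, Prdx3, Sod2 and Gclm), against 24.7% of all probes (9.96% higher and 14.7% lower). The median change of the 10 genes was 0.73, beside 0.12 over all probes. From CFUe to Ter119 9 were called, 4 higher (Prdx5, Cat, Gpx1 and Prdx2) and 5 lower (Prdx1, Sod1, Sod2, Prdx3 and Txnrd1), against 57.2% of all probes (29.2% higher and 28.0% lower).

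Over the myeloid steps, none of the 10 was called from KLS to PreGM, where 8.63% of all probes were (2.11% higher and 6.52% lower). Without a minimum fold, 4 passed the adjusted p from limma there (Gpx1 0.81, Sod2 0.69, Prdx5 0.47 and Prdx3 0.35), against 25.7% of probes. At an unadjusted p under 0.05 6 of the 10 passed, against 36.4% of all probes, and quantile, normexp and spike-in scaling and the authors' normalized table called none either. From PreGM to GMP only Prdx5 was called, higher, against 10.4% of probes (4.01% higher and 6.36% lower). From GMP to Mac1Gr1 8 were called, 7 of them lower and Prdx5 higher, against 56.7% of all probes (29.1% higher and 27.6% lower). The median change of the 10 genes was -1.93 beside 0.17 over all probes, and only Gpx1 and Gclm were not called.

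Between the branches, PreMegE exceeded PreGM only in Gclm (1.59 ± 0.14, adjusted p 2.59e-07), against 12.0% of probes called (5.81% higher and 6.23% lower). CFUe exceeded GMP in Gclm (2.71), Prdx2 (2.07), Prdx3 (1.28) and Sod1 (1.21) and was lower in Prdx5 (-2.27), 5 called of 10 against 26.3% of probes (12.1% higher and 14.2% lower). Quantile scaling and the authors' normalized table also gave 5 called genes, but Sod1 fell short of 2-fold (0.90 and 0.77) and Gpx1 was called lower (-1.03 and -1.05). Under spike-in scaling, which moved the median of all probes in this comparison from 0.22 to -1.15, Gclm remained called higher, Prdx3 and Sod1 turned to -0.10 and -0.16, and 5 genes were called lower. Ter119 exceeded Mac1Gr1 in 6 genes, Prdx2 (6.17), Cat (4.95), Gclm (2.85), Prdx3 (2.50), Gpx1 (2.15) and Sod1 (1.13), and was lower in Prdx5 (-1.85), 7 called of 10 against 41.9% of probes (22.0% higher and 19.9% lower). Sod2 (0.91) and Prdx1 (0.88) had adjusted p under 0.05 there without reaching 2-fold. Both were called under quantile scaling (1.26 and 1.1) and in the authors' normalized table (1.18 and 1.1), each with 9 of the 10 genes called. Without Ter119 replicate 1 they were called too (1.01 and 1.1), as was Prdx1 without Mac1Gr1 replicate 2 (1.01). All Ter119 arrays carried Y-linked transcripts and all Mac1Gr1 arrays carried Xist, so that sex and fraction cannot be told apart within this pair.

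**Figure D3:**
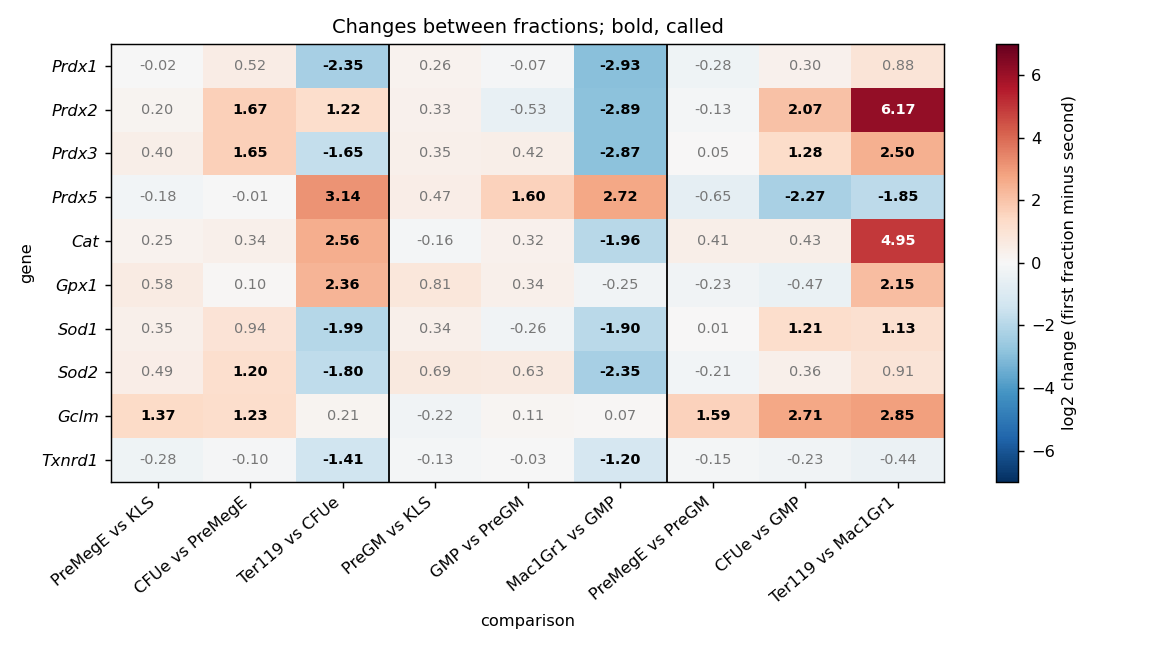
Log2 change of each gene (rows) in each of the 9 comparisons (columns: 3 erythroid steps, 3 myeloid steps, 3 comparisons between the branches), with red for higher in the fraction named first. Bold values were called (at least 2-fold, adjusted p under 0.05). The columns for the last step of each branch hold most of the bold values, and Gclm is the only gene called in the first column.

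The same step was then compared between the branches. At the second step the change from PreMegE to CFUe exceeded that from PreGM to GMP for Prdx2 by 2.20 ± 0.21 (adjusted p 4.76e-07), for Prdx3 by 1.23 ± 0.17 (adjusted p 2.39e-05), for Sod1 by 1.20 ± 0.21 (adjusted p 3.05e-04) and for Gclm by 1.12 ± 0.20 (adjusted p 3.91e-04). It was smaller for Prdx5, by -1.62 ± 0.22 (adjusted p 2.61e-05). With Sod2 (0.57 ± 0.20, adjusted p 0.0405) 6 of 10 differed, against 34.3% of all probes (18.2% higher and 16.0% lower in the erythroid branch). Spike-in scaling lowered the median of all probes in this contrast from 0.15 to -1.39. It took the differences of Prdx3, Sod1 and Gclm to -0.30, -0.33 and -0.41, while that of Prdx2 stayed positive at 0.67 (adjusted p 0.132).

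At the third step the change from CFUe to Ter119 exceeded that from GMP to Mac1Gr1 for Cat by 4.52 ± 0.19 (adjusted p 1.45e-11), for Prdx2 by 4.10 ± 0.21 (adjusted p 1.03e-10), for Gpx1 by 2.62 ± 0.20 (adjusted p 1.36e-08) and for Prdx3 by 1.22 ± 0.17 (adjusted p 1.08e-05). Cat and Prdx2 moved in opposite directions in the branches, Gpx1 rose in 1 branch only, and Prdx3 fell in both but less in the erythroid branch. With Sod2 (0.55 ± 0.20, adjusted p 0.0326) 5 of 10 differed, against 55.0% of all probes (26.0% higher and 28.9% lower). Prdx5, Txnrd1, Sod1 and Gclm did not pass (0.42, -0.21, -0.09 and 0.15, adjusted p 0.116 to 0.754), which does not show that their steps were alike. Under quantile scaling and with the authors' normalized values 9 of 10 passed, and Sod1 became 0.64 and 0.74. Prdx1 (0.58 ± 0.26, adjusted p 0.0672) passed without Ter119 replicate 1 (0.80, adjusted p 0.00650) or Mac1Gr1 replicate 2 (0.70, adjusted p 0.0363).

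Both differences of Sod2 depended on the processing and on single arrays. That at the second step was 0.19 (adjusted p 0.307) under quantile scaling, 0.086 (adjusted p 0.675) in the authors' normalized table and -0.96 under spike-in scaling. The difference at the third step fell short under normexp scaling (0.43, adjusted p 0.0562) and with slide as a block (0.45, adjusted p 0.217), and both did so with no filter on dim probes (adjusted p 0.0677 and 0.0536). At the second step Sod2 also missed the threshold without PreMegE replicate 1 (0.58, adjusted p 0.0597) or 3 (0.50), CFUe replicate 2 (0.51) or 3 (0.55), PreGM replicate 1 (0.52) or 2 (0.56), or GMP replicate 1 (0.55) or 3 (0.54), with both replicate 3 arrays of CFUe and PreGM left out (0.61, adjusted p 0.056), and with the sex difference as a block (0.55, adjusted p 0.0563). At the third step it missed it without CFUe replicate 1 (0.47), Ter119 replicate 2 (0.45) or 3 (0.54), GMP replicate 2 (0.50), or Mac1Gr1 replicate 1 (0.52) or 2 (0.54).

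**Figure D4:**
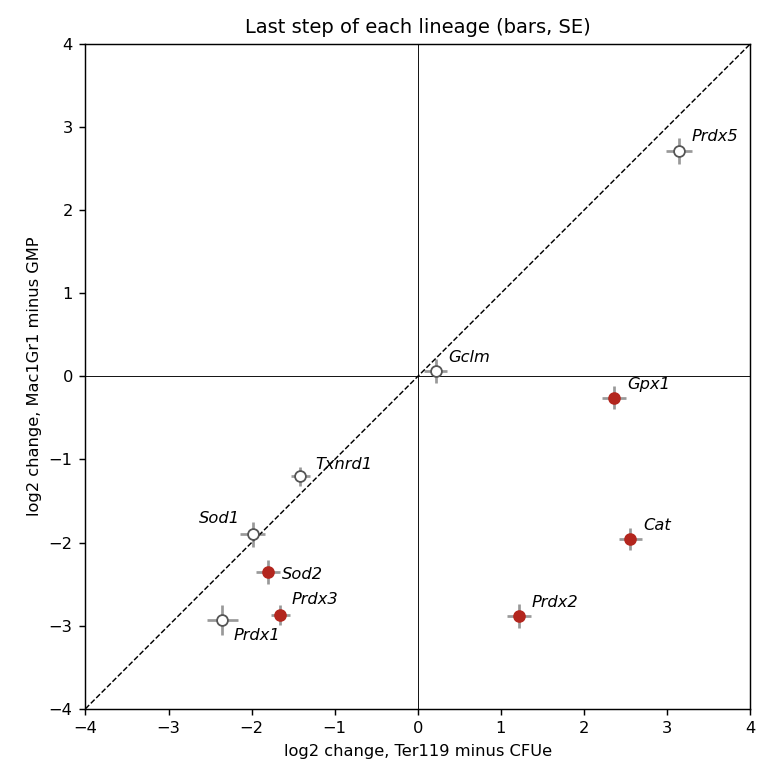
Log2 change at the last step of the erythroid branch (horizontal) against that of the myeloid branch (vertical) for the 10 genes, with SE bars, and a dashed line where both are equal. Filled red points differ between the branches (adjusted p under 0.05). Cat, Prdx2 and Gpx1 lie far to the right of the line, while Prdx5 is high on both axes.

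Of 53 further genes of antioxidant defence listed by role, 52 were tested; Sod3, the extracellular dismutase, was too dim. At the erythroid steps 3, 11 and 25 of the 52 were called higher (5.77%, 21.2% and 48.1%, against 3.55%, 9.96% and 29.2% of all probes) and 8, 6 and 16 lower (15.4%, 11.5% and 30.8%, against 8.86%, 14.7% and 28.0%). At the myeloid steps 2, 9 and 23 were called higher (3.85%, 17.3% and 44.2%, against 2.11%, 4.01% and 29.1%) and 6, 7 and 16 lower (11.5%, 13.5% and 30.8%, against 6.52%, 6.36% and 27.6%). Their median changes were 0.09, 0.39 and 0.74 at the erythroid and 0.10, 0.08 and 0.30 at the myeloid steps, beside 0.13, 0.12, 0.05, 0.06, -0.02 and 0.17 over all probes. Between the branches, from the earliest pair to the last, 3, 15 and 13 were called higher in the erythroid fraction (5.77%, 28.8% and 25%, against 5.81%, 12.1% and 22.0% of all probes) and 8, 14 and 19 lower (15.4%, 26.9% and 36.5%, against 6.23%, 14.2% and 19.9%).

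Hmox1, which breaks down haem, was lower in PreMegE and in PreGM than in KLS (-4.66 and -4.53), comparisons that share the KLS arrays, in which macrophage markers were also high; the part of those markers was not tested. Mgst1, a microsomal glutathione transferase, was lower in PreMegE than in KLS (-3.57), Gstm5, a cytosolic one, was higher (2.57), and Me1, which makes NADPH, was at least 1.72-fold lower in PreMegE and at least 1.44-fold lower in PreGM than in KLS. Gsta4 was lower (-1.52) and Msrb1 higher (1.45) in PreGM than in KLS. From PreMegE to CFUe Gpx7 fell at least 6.00-fold, since no CFUe array was well above background, the sestrin Sesn3 and the transferase Gstm1 fell (-2.97 and -2.47), and the microsomal transferase Mgst3 rose (1.93). From CFUe to Ter119 Mgst2 (7.71) and Mgst1 (7.15) rose, the thioredoxin reductase Txnrd3 fell (-4.07), and the cystine transporter Slc7a11 rose at least 4.08-fold. Mgst1 and Mgst2 were also higher in GMP than in CFUe (changes of -6.08 and -7.72 for CFUe against GMP), and the granulocytic markers rose beside them into Ter119, whose part was not tested.

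From PreGM to GMP Gpx3, the secreted glutathione peroxidase (3.84), Mgst2 (3.07), the glutathione reductase Gsr (2.85) and Gstm1 (2.63) rose. From GMP to Mac1Gr1 the glutathione-degrading enzyme Ggt1 (5.09) and Slc7a11 (4.86) rose, and the transferases Gstm1 (-4.82) and Gsto1 (-4.62) fell. Both rises started from dim GMP levels, so their sizes are uncertain. Ggt1 was at -5.13 there, with 2 of 3 arrays well above background, and Slc7a11 at -4.65, with 3 of 3. Ter119 exceeded Mac1Gr1 in Mgst3 (5.71), Gstm5 (5.31), the mitochondrial glutaredoxin Glrx5, which serves iron-sulfur cluster assembly (5.25), and the mitochondrial thioredoxin reductase Txnrd2 (4.10). Gstm5 was dim in Mac1Gr1 (-3.94), with 2 of 3 arrays well above background. The quinone reductase Nqo1 was higher in PreMegE than in PreGM (3.10), as was Gstm5 (2.37), while Mgst1 and Mgst2 were lower (-3.44 and -2.81). Nqo1 was at least 51.1-fold higher in CFUe than in GMP, where no array was well above background, and Gstm1 was lower there (-6.21).

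Among the regulators, Nfe2l2, which encodes NRF2, rose from KLS to PreMegE (1.18), fell from CFUe to Ter119 (-1.07) and rose from GMP to Mac1Gr1 (1.51). From GMP to Mac1Gr1 6 of the 7 listed regulators were called higher and 0 lower, against 29.1% and 27.6% of all probes, and Foxo3 (3.60) and Nfe2 (2.30), named after their values were seen, were among them. The same list had 3 called higher and 2 lower from CFUe to Ter119 (29.2% and 28.0% of all probes), and 0 higher and 1 lower both from PreMegE to CFUe (9.96% and 14.7%) and from PreGM to GMP (4.01% and 6.36%). Of the 4 genes of NADPH supply, 2 were called higher and 0 lower from PreMegE to CFUe, against 9.96% and 14.7% of all probes. These were G6pdx (1.13) and Pgd (1.11), the oxidative enzymes of the pentose phosphate pathway, which also rose from GMP to Mac1Gr1 (2.59 and 2.10), where 29.1% of probes were called higher. At the other steps 3 of the 4 were called higher from CFUe to Ter119 (29.2% of probes) and 2 from PreGM to GMP (4.01%), and 1 was called lower in PreMegE and in PreGM than in KLS (8.86% and 6.52%). Between the branches none was called higher and 1, 2 and 3 were called lower in the erythroid fraction, from the earliest pair to the last (6.23%, 14.2% and 19.9% of probes).

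Across the 21 arrays, which share fractions, Prdx1 and Sod1 (Pearson r 0.92), Prdx2 and Cat (0.92), Prdx3 and Sod1 (0.91), and Sod2 with Prdx3 and with Sod1 (both 0.90) varied most alike, and Prdx5 ran opposite to Prdx1 and to Sod1 (both -0.88). Among 10159 other named genes above background on every array, the most alike were Prmt1 for Prdx1 (r 0.996), Glrx5 for Prdx2 (0.980), Carm1 for Prdx3 (0.984), Ift140 for Cat (0.984), Ppp1cb for Gpx1 (0.956), Cisd1 for Sod1 (0.988), Apip for Sod2 (0.985), Npsr1 for Gclm (0.984) and Rcn1 for Txnrd1 (0.973). The second in likeness to Gclm was Ank1 (0.976), the ankyrin of the red cell membrane. These are descriptions over 7 fractions, and carry no test.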

How the data were processed

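Total RNA from 21 sorted samples was labelled with Cy3 and hybridised singly to whole mouse genome arrays. The deposited scanner files hold background-corrected intensity per spot on a linear scale, made by the authors in Agilent Feature Extraction (version 10.7.1.1 per the file headers). A series table deposited by the authors gives between-array normalized log2 values. Here, outlier spots (80 to 283 of 43379 per array) were left out, each array's 75th percentile was subtracted from log2 intensity, and spots of a probe were averaged, which makes every change relative to that percentile. Tests covered the 29527 of 41174 probes that the scanner flags placed well above background on every array of some fraction.

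A model with 1 mean per fraction was fitted with limma 3.58.1 in R 4.3.3, with Benjamini-Hochberg adjustment over all tested probes and a call at an adjusted p under 0.05 and at least 2-fold. Differences between lineage steps needed no minimum fold. Symbols came from RefSeq accessions (names of GRCm38.p6); 26690 probes had one. The members, gene lists and tests were chosen with earlier results of these data known. Other pathway genes are named, up to 4 per comparison, by the largest change among those called, and regulators, NADPH genes and Gclc were named after their values were seen. A fold against a fraction not above background is a lower bound, set per array at the higher of the lowest signal well above background and the probe's own.

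Alternatives were quantile, spike-in (7 of 10 probes) and normexp scaling (offset 50), the last on median signals, no filter on dim probes, no minimum fold, the mean of a gene's probes, slide and replicate number as blocks, the compared fractions alone, the series table, and each array left out. The sex difference as a block and the joint omission of 2 arrays were chosen after seeing the data. Some marker genes and the gene most like Prdx5 are not reported here.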

Additional observations from a re-analysis of the deposited data

Results flagged for a closer look

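These values were flagged by the limma contrast of the difference itself. In each, a gene changed by a different amount at the same step of the 2 lineages. Of all probes, 34.3% differed in this way at the second step and 55.0% at the third. At the second step (CFUe minus PreMegE, less GMP minus PreGM) the differences were 2.20 for Prdx2, 1.23 for Prdx3, 1.20 for Sod1, 1.12 for Gclm, 0.57 for Sod2 and -1.62 for Prdx5. At the third step (Ter119 minus CFUe, less Mac1Gr1 minus GMP) they were 4.52 for Cat, 4.10 for Prdx2, 2.62 for Gpx1, 1.22 for Prdx3 and 0.55 for Sod2. The arrays of CFUe and GMP enter both contrasts. Both Sod2 values depended on the processing and on single arrays.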

How the results depend on the processing

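All 10 genes differed among the 7 fractions under every setting run. Counts of called genes changed by over 1.5 times, or turned, in these cases. Under spike-in scaling they were 0 for PreMegE vs KLS, 2 for CFUe vs PreMegE and 6 for GMP vs PreGM, against 15.2%, 27.3% and 49.2% of all probes. For CFUe vs GMP 6 were called, 1 higher and 5 lower (2.32% and 57.4% of all probes), and at the second step 5 differed, all lower in the erythroid branch (66.2%). The totals at the last steps changed less, but spike-in scaling moved their directions. It gave 2 higher and 6 lower for Ter119 vs CFUe (13.7% and 56.1% of all probes). For Mac1Gr1 vs GMP it gave 0 higher and 9 lower (6.42% and 70.0%). Quantile scaling gave 2 for CFUe vs PreMegE (21.9% of all probes), and both it and the series table gave 9 for the third step (58.0% and 57.7%). Without a minimum fold the counts were 4 for PreMegE vs KLS (26.2% of all probes), 7 for CFUe vs PreMegE (50.9%), 4 for PreGM vs KLS (25.7%), 4 for GMP vs PreGM (26.3%), 3 for PreMegE vs PreGM (27.5%) and 8 for CFUe vs GMP (53.9%). The cause was not tested, except that spike-in scaling shifts all probes of an array by 1 constant, so that the order of the genes within a comparison did not change.

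Some values turned under spike-in scaling and were called with it or without it. In Ter119 vs CFUe these were Prdx2 (-0.16) and Gclm (-1.17), and in Mac1Gr1 vs GMP Gclm (-1.97). In CFUe vs GMP they were Prdx1 (-1.07), Prdx3 (-0.10), Sod1 (-0.16) and Sod2 (-1.01). At the second step they were Prdx3 (-0.30), Cat (-1.51), Sod1 (-0.33), Sod2 (-0.96) and Gclm (-0.41). A further 21 values changed sign but were called neither with it nor without it, such as Cat in CFUe vs GMP (-0.94). Sod1 at the third step turned to 0.64 under quantile scaling and to 0.74 in the series table.

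With each array left out in turn, counts ranged from 4 to 5 for CFUe vs PreMegE, 7 to 9 for Ter119 vs Mac1Gr1, 5 to 6 at the second step and 4 to 6 at the third, and were as reported elsewhere. Same-numbered arrays of different fractions showed no common deviation (median r 0.0025, range -0.43 to 0.37). Of the 21 arrays, 7 correlated best with their own number. Whether same-numbered samples came from the same animal or sort is not in the labels, and these correlations cannot exclude it. With the replicate block the count was 6 for the third step, with Prdx1 (0.58, adjusted p 0.0425) added, and was as without it elsewhere. With slide as a block 5 were called in CFUe vs PreMegE, 8 in Ter119 vs Mac1Gr1 and 4 at the third step. The 9 slides held 2 to 3 arrays each, too few for a test within a slide. Deviations of arrays on the same slide had a median r of 0.12 (15 pairs, range -0.05 to 0.40), higher than for same-numbered arrays. All 10 genes were above background on every array, so a dim signal limited none of these values. They were limited by the 3 arrays per fraction and by the choice of scaling. A value counted as turned if its sign changed and it was called in either setting. Spike-in scaling turned 12 of 110 values, and leaving out 1 array turned 0 of 780. A further 21 and 20 values changed sign while called in neither setting.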
